A study of Mus musculus with 5480 samples.

Results

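Adventitial fibroblasts are the connective tissue cells of the sleeves around the airways and larger vessels of the lung, and the comparison here set those of newborn mice against those of fetal mice just before birth. The members were the cells whose deposited subtype label was Early adventitial fibroblast in the mice of embryonic day 18.5 (E18.5) and of postnatal day 1 in normal air (P1). They numbered 260 of the 5480 cells of the series, 598 of which carry that label at any age. The E18.5 female gave 26 such cells and the E18.5 male 29, whereas the P1 female gave 138 and the P1 male 67. No genetic change, drug or oxygen exposure is given for these 4 mice in the labels, their strain is not given in the sources used here, and whether the 2 mice of an age were littermates is not known. All cells came from distal lung and had been sorted by flow cytometry before plate-based sequencing of single cells. Mice of P7, in normal air or in hyperoxia (oxygen-enriched air), entered the fits to estimate the spread between mice, and are named below where their values are given. P21 mice held 8 and 1 cells of the label and entered no fit.

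Adventitial fibroblasts lay down the collagen and elastic fibres of these sleeves, and they are known as a source of retinoid-metabolising enzymes, complement components and chemokines. Late gestation is marked by a rise of glucocorticoid hormones, which ripen the lung, and birth brings air breathing and higher oxygen. Glucocorticoids act through the receptor encoded by Nr3c1, and its classic targets include Fkbp5, Tsc22d3, Zbtb16, Klf15 and Per1.

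The summed reads of the label were 24675644 in the E18.5 female, 27180700 in the E18.5 male, 90085108 in the P1 female and 67129195 in the P1 male. Median reads per cell were 939564 and 739574 at E18.5 and 613613 and 900882 at P1 (female, then male). At an equal 100000 reads per cell the median cell showed 3077 and 3669 genes at E18.5 and 2750 and 3472 at P1, and 4 and 5 P1 cells fell short of that depth. Levels are given as CPM, the summed reads of a gene scaled to a common library size after TMM normalization, a correction for library composition. A level says nothing of how many cells carry it, so the share of cells with a read stands beside it. The females of both ages were sequenced in 1 run and the males in another, apart from 3 cells of a CD31 sort, so a difference within a sex was also a difference within a run, and sex and run cannot be told apart.

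The markers of the label were present at both ages, though not all of them set it apart. Pi16, a marker of adventitial fibroblasts in many organs, was read in 26.9% and 13.8% of the cells at E18.5 and in 26.1% and 19.4% at P1, against 1.82% to 3.82% of all other cells of the same 4 mice. Dcn, the small collagen-binding proteoglycan decorin, was read in 42.3% and 48.3% and then in 73.2% and 52.2% of the cells, against 7.47% to 11.1% of the others. Col14a1, a fibril-associated collagen, was read in 88.5% and 93.1% of the cells at E18.5 and in 94.2% and 83.6% at P1, but the other cells had it in 83.0% and 71.1% at E18.5 and in 29.3% and 24.5% at P1. Ly6a, the surface antigen Sca-1, was at 0 reads in both E18.5 mice. The summed level of the 28 adventitial markers was 11236 and 13211 CPM at E18.5 and 22209 and 15743 CPM at P1. That of 20 alveolar fibroblast markers was 11605 and 8667 CPM and then 6723 and 8544 CPM, above the adventitial sum in the E18.5 female, and most of it was Mfap4, a microfibril-associated protein, at 7452 and 4741 and then 4274 and 5422 CPM. The other cells were not the same mixture at the 2 ages. Fibroblast precursors were 425 and 335 of them at E18.5 and 3 and 1 at P1, and early alveolar fibroblasts were 14 and 24 and then 362 and 393, so a difference between ages over all other cells is also one between labels. Dpp4, which marks a related progenitor state elsewhere, was near 0 at both ages, with 0.994 CPM as its highest value in any of the 4 mice. Of the markers of other cell types, the 12 epithelial genes summed to 17.1 and 11.5 CPM at E18.5 and to 77.5 and 52.6 CPM at P1, with 6 of the 12 at 0 reads in each E18.5 mouse and 2 in each P1 mouse. Scgb1a1, the club cell secretoglobin, made up 40.0 and 32.9 CPM of the P1 sums, 95.5% and 63.5% of it from 1 cell. The 12 immune genes summed to 34.2 and 11.8 CPM at E18.5 and to 10.1 and 37.7 CPM at P1. The mesothelial genes summed to 62.9, 132, 274 and 22.5 CPM in the order E18.5 female and male, P1 female and male, and 178 CPM of the P1 female's sum were Upk3b, 99.8% of it from a single cell. The chondrocyte genes summed to 457, 14.6, 90.2 and 499 CPM in the same order, which crosses the ages. The part of such reads in the differences below was not tested.

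Wfdc1 and Adh7 rose from E18.5 to P1, and no other gene passed the test in either direction. Wfdc1 encodes a secreted protein with a whey acidic protein core, a fold known from protease inhibitors. It was at 0 reads in both E18.5 mice and at 31.6 CPM in the P1 female and 33.8 CPM in the P1 male (edgeR quasi-likelihood test, adjusted p = 0.0065). Adh7 encodes an alcohol dehydrogenase that oxidises retinol, the first step from vitamin A to retinoic acid. It was at 0 reads in both E18.5 mice and at 48.1 and 17.1 CPM in the P1 female and male (edgeR, adjusted p = 0.0201). Of 14831 genes tested, 2 (0.0135%) passed at P1 above E18.5 and 0 (0.0%) below, while 1416 had an unadjusted p under 0.05, 931 of them higher and 485 lower at P1. With the 4 mice of E18.5 and P1 alone the same test called 0 genes and both adjusted p-values became 0.389. Leaving out the male of P7 in hyperoxia ended both calls (0.0633 for Wfdc1, 0.139 for Adh7), and leaving out the P7 male (0.0580) or the female of P7 in hyperoxia (0.201) ended that of Adh7. DESeq2 on the same sums called 875 genes, 603 higher and 272 lower.

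The reads of both genes came from a minority of the cells. Wfdc1 was read in 19 of the 138 cells of the P1 female (13.8%, 95% Wilson interval 8.99 to 20.5%) and in 8 of the 67 cells of the P1 male (11.9%, 6.18 to 21.8%). No cell of the 26 and 29 at E18.5 had a read, which allows shares of up to 11.5% and 10.3%, or 5.45% over the 55 cells. Adh7 was read in 11 cells of the P1 female (7.97%) and 5 of the P1 male (7.46%). Those shares lie under the limit that 0 cells allow in each E18.5 mouse, so for Adh7 a difference in the share of cells between mice was not detectable with this number of cells, and no fold is given for either gene. The cell with the most reads gave 23.2% and 32.0% of the Wfdc1 reads of the P1 female and male, and 24.4% and 47.8% of the Adh7 reads. These intervals and limits hold for counting error alone, since reads copied from 1 molecule are not independent.

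At P1, 2 cells had reads of both genes, of 27 with Wfdc1 and 16 with Adh7. That is Adh7 in 7.41% of the cells with Wfdc1, close to its 7.80% of all 205 cells. Some other markers were read in different shares of these 2 small sets of cells. Dcn was read in 23 of the 27 cells with Wfdc1 (85.2%) and in 6 of the 16 with Adh7 (37.5%), against 66.3% of all. Lum, the related proteoglycan lumican, was read in 15 of the 27 and 1 of the 16, against 39.5% of all. Ly6a was read in 8 of the 27 and 0 of the 16, against 13.2% of all. Pi16 did not follow these, and was read in 12 of the 27 (44.4%) and 8 of the 16 (50.0%), against 23.9% of all. These counts pool the cells of the 2 P1 mice, were not split by mouse or by reads per cell, and are a description.

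Beyond P1 Wfdc1 was read in more of the adventitial cells in every mouse, and Adh7 in more of them at P21 but not in every mouse at P7. The share with Wfdc1 was 40.8% and 43.6% in the P7 female and male, 40.4% and 45.7% at P7 in hyperoxia, and 52.9% and 55.3% in the cells labelled Adventitial fibroblast at P21. The share with Adh7 was 16.3% and 9.09% at P7, 16.5% and 7.76% at P7 in hyperoxia, and 28.8% and 28.2% at P21. Every postnatal mouse lay above both E18.5 mice in both genes. Since both genes were called with 0 reads at E18.5, any cell with a read was enough for that. The P7 mice had also entered the fit that made the calls, so this is no independent support. In all other cells of the 4 mice, Wfdc1 was read in 0.166% and 0.364% at E18.5 and in 2.22% and 1.99% at P1, and Adh7 in 2.16% and 3.27% and then in 0.404% and 2.58%. By label, Wfdc1 was in 4 of 38 early airway smooth muscle cells of the P1 female (10.5%), near the 13.8% of her adventitial cells. In the P1 male it was in 1 of 23 (4.35%), below the 11.9% of his adventitial cells. Of the early alveolar fibroblasts only 1.38% and 1.53% had a Wfdc1 read. Adh7 was in 2.35% and 4.18% of the fibroblast precursors at E18.5, a label next to absent at P1, and in 0.552% and 2.80% of the early alveolar fibroblasts at P1.

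**Figure D1:**
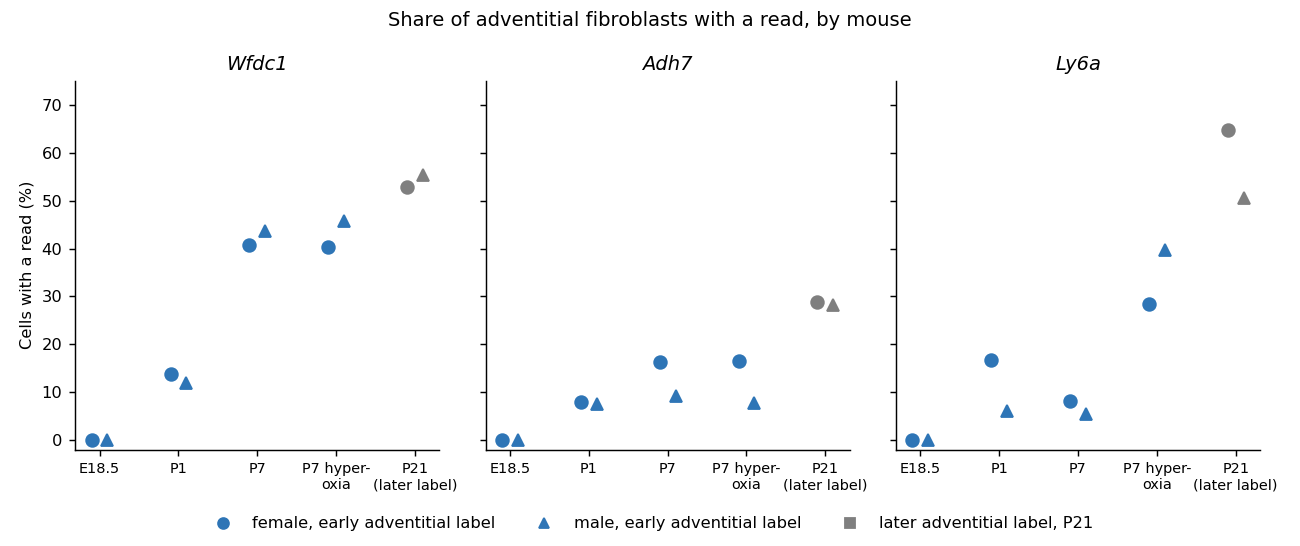
Share of cells with a read (y axis, %) for 3 genes in each mouse of 5 groups (x axis). Circles are females and triangles males, blue for the early adventitial label and grey for the later adventitial label at P21. Wfdc1 and Adh7 are at 0 at E18.5, and Wfdc1 goes from 13.8% and 11.9% at P1 to 52.9% and 55.3% at P21.

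Part of the adventitial marker list lay higher at P1. The list held 28 genes, all tested, and 0 passed. Their median fitted log2 change was 1.11, beside 0.15 over all genes tested. To describe genes that did not pass, a level is called separated where both P1 mice lay above, or both below, both E18.5 mice and the means differed at least 2-fold, among genes that reached a mean of 10 CPM at either age. By that rule 11.1% of 9500 genes were separated and higher at P1 and 11.0% separated and lower. Of the 25 adventitial markers at that level, 11 were separated and higher, 1 was lower and 13 were not separated. The lower one was Scara5, a scavenger receptor, at 119 and 60.4 and then 47.9 and 11.2 CPM.

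Mfap5, a microfibril glycoprotein, was at 298 and 1022 CPM at E18.5 and at 4277 and 2743 CPM at P1. Both P1 mice lay above both E18.5 mice, and the E18.5 male stood well above the E18.5 female. The fitted log2 change was 2.53 ± 0.55 (SE; edgeR, adjusted p = 0.225). Serpinf1, the secreted serpin PEDF, was at 353 and 248 CPM at E18.5 and at 1034 and 658 CPM at P1. Its groups did not overlap, and it was read in only 5.32% to 8.08% of the other cells. Ly6a was at 0 reads in both E18.5 mice and at 180 and 46.5 CPM at P1, and a single cell gave 90.3% of the reads in the P1 male. Its adjusted p was 0.0567 in edgeR. Dcn was at 401 and 757 CPM at E18.5 and at 3925 and 893 CPM at P1, and Lum at 177 and 111 and then 1322 and 210 CPM. For both proteoglycans the P1 female stood far above the P1 male, and the P1 male only a little above the E18.5 mice. Ebf2, a transcription factor of mesenchymal progenitors, followed the same order with 0 and 0.184 CPM at E18.5 and 92.2 and 7.27 CPM at P1. Gsn, the actin-severing protein gelsolin, was level at 4342, 4089, 3391 and 3913 CPM.

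**Figure D2:**
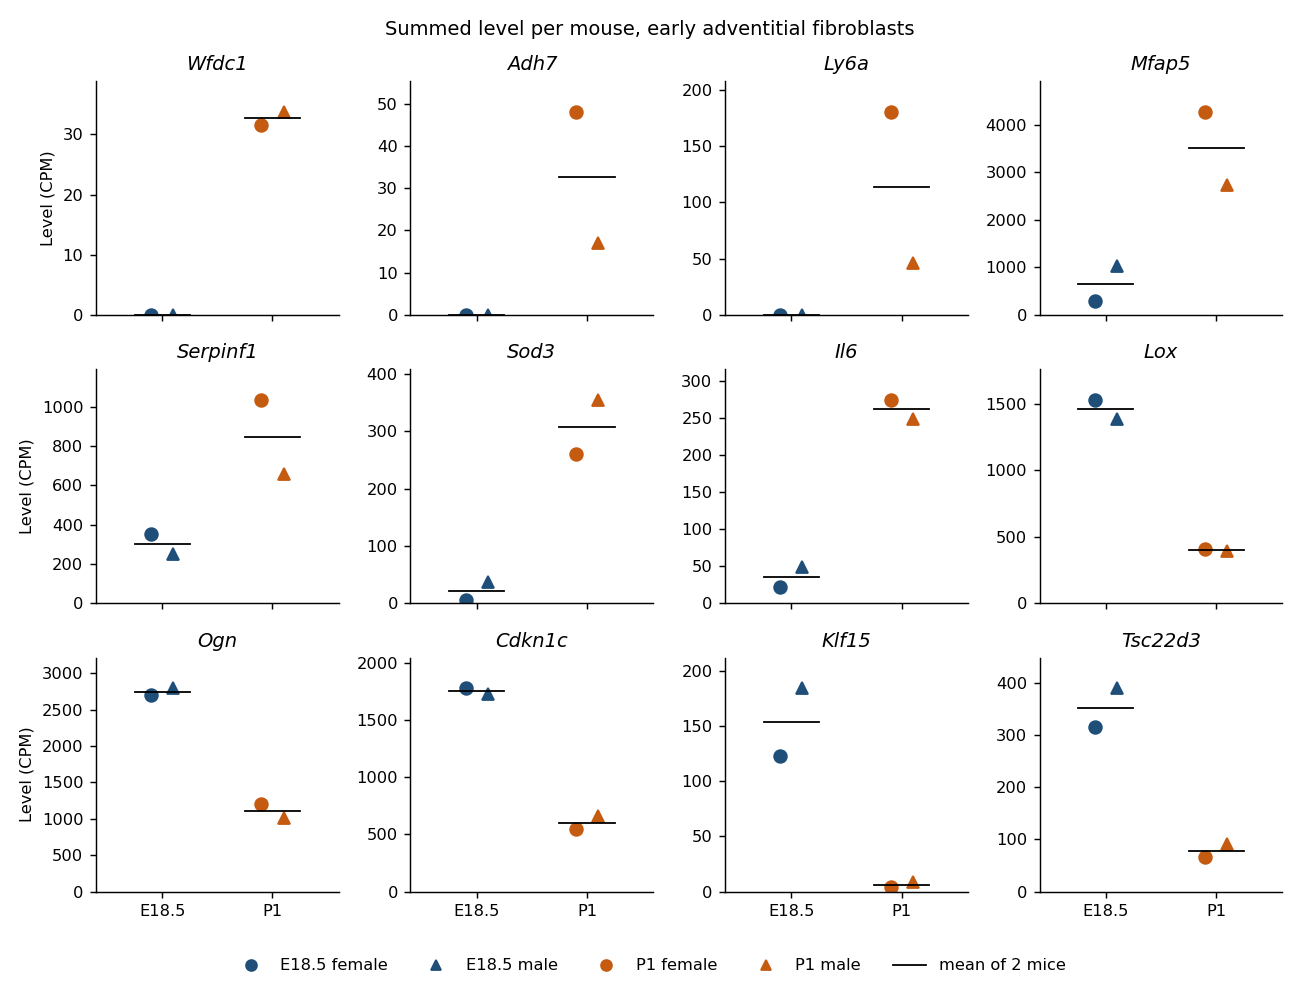
Level of 12 genes in early adventitial fibroblasts (y axis, CPM of summed reads, from 0) at E18.5 and P1 (x axis). Circles are females, triangles males, black lines the mean of 2 mice; Wfdc1 and Adh7 alone passed the test, and Lox, Ogn, Cdkn1c, Klf15 and Tsc22d3 have both P1 mice below both E18.5 mice.

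The genes whose share of cells with a read moved most included secreted and matrix genes upward and glucocorticoid-response genes downward, among others of mixed kinds. Over 16917 genes with any read, 11 (0.065%) had both P1 shares above both E18.5 shares by at least 20 percentage points in each sex, and 197 (1.16%) had them below by as much. At P1 the median gene's share was lower by 1.17 points in females and 1.75 points in males. Shares have no test here, since 2 mice against 2 cannot give an exact two-sided permutation p below 0.333.

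Mfap5 had the largest step upward, from 46.2% of the cells in the E18.5 female and 48.3% in the male to 90.6% and 89.6% at P1. All 4 values were the same within 1 point at 100000 reads per cell, at 46.2%, 48.3%, 90.3% and 90.3%. In all other cells of these mice Mfap5 was read in 5.16% and 6.00% at E18.5 and in 22.4% and 20.7% at P1, between which the mixture of labels changed. Within early alveolar fibroblasts its share was 14.3% and 0.0% of 14 and 24 cells and then 23.8% and 22.6%. Fibroblast precursors had it in 2.82% and 4.48% at E18.5, and the myofibroblasts of P1 in 7.69% and 6.25%. Ecm1, the extracellular matrix protein 1, was read in 15.4% and 20.7% of the adventitial cells at E18.5 and in 60.1% and 53.7% at P1. Its level was 19.5 and 33.4 CPM and then 339 and 234 CPM, a log2 change of 3.40 ± 0.45 (edgeR, adjusted p = 0.0616). C1qtnf2, a secreted relative of complement C1q, went from 23.1% and 17.2% of the cells to 52.9% and 61.2%, with levels of 40.9 and 28.7 and then 229 and 195 CPM (edgeR, adjusted p = 0.0567). Nupr1, a small stress-induced chromatin protein, was read in 19.2% and 44.8% and then in 61.6% and 70.1%. In all other cells its share was 58.9% and 56.4% at E18.5 and 56.4% and 57.5% at P1, close to level. Sod3, the extracellular superoxide dismutase, was read in 19.2% and 37.9% of the cells and then in 60.1% and 62.7%, at 5.38 and 37.1 and then 261 and 355 CPM. Anxa1, Crip1 and Rab31 made up the 8 genes with the largest steps upward, with P1 shares of 37.3% to 75.4%.

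Hif3a had the largest step downward. It encodes a hypoxia-inducible factor subunit and is also a glucocorticoid target, and it was read in 69.2% and 69.0% of the cells at E18.5 and in 8.70% and 10.4% at P1. Klf15, a Krüppel-like transcription factor of metabolic genes, was read in 53.8% and 55.2% and then in 2.17% and 5.97%. Pdk4, the kinase that shuts pyruvate out of the citric acid cycle, was read in 46.2% and 51.7% and then in 2.90% and 4.48%. H19, the maternally expressed imprinted RNA, was read in 88.5% and 82.8% and then in 37.7% and 40.3%, although its summed level differed less, at 666 and 610 and then 441 and 282 CPM. Arrdc3, an arrestin-domain adaptor, was read in 84.6% and 89.7% and then in 38.4% and 44.8%. Mum1l1, Per1 and Tbc1d23 completed the 8. Thinning to 100000 reads left every one of these 8 genes lower in both P1 mice, with Tbc1d23 the closest at 61.5% and 44.8% and then 31.3% and 24.2%.

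**Figure D3:**
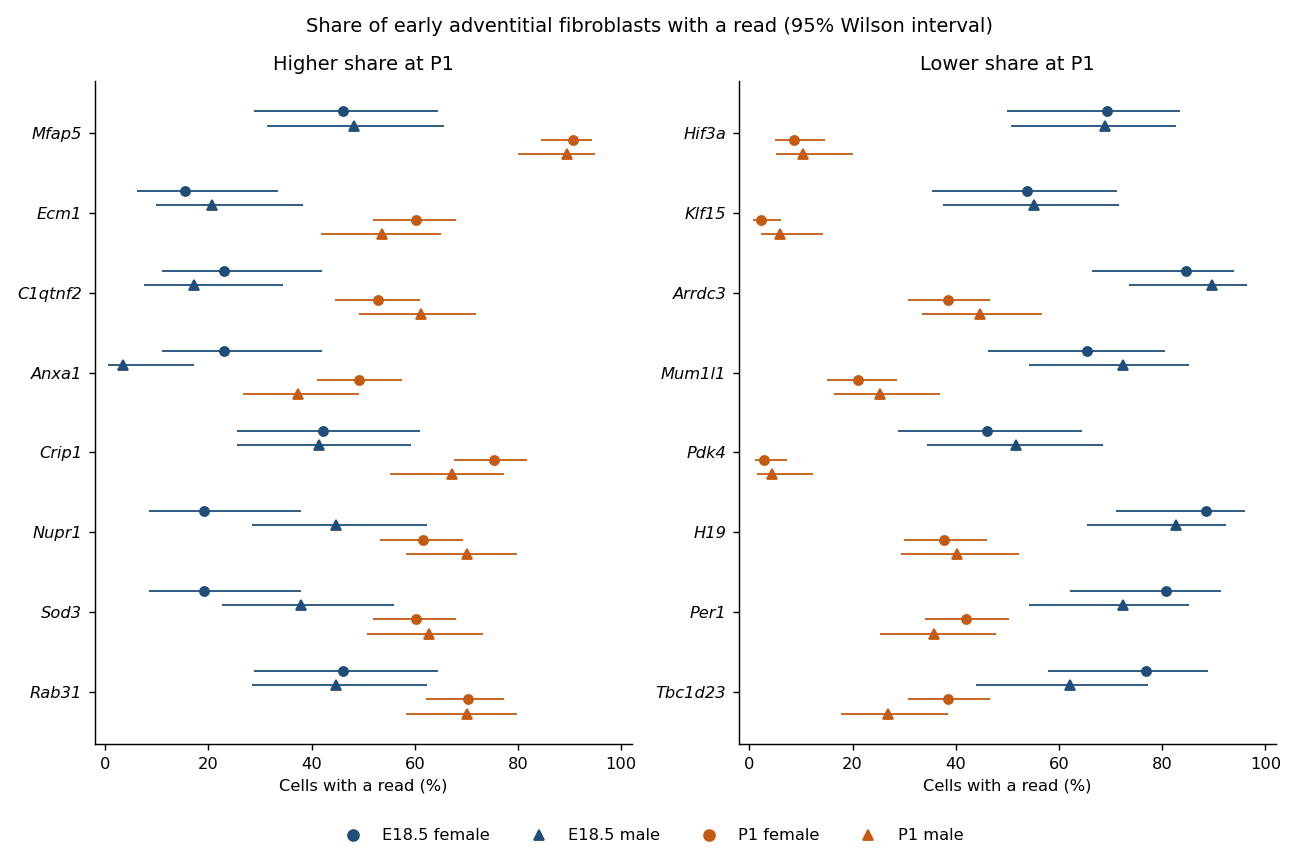
Share of early adventitial fibroblasts with a read (x axis, %) for the 8 genes with the largest step up and the 8 with the largest step down, ranked by the smaller of the female and male differences. Points are mice (circles female, triangles male, blue E18.5, orange P1) and bars 95% Wilson intervals, so the genes were chosen for the separation shown; Mfap5 goes from 46.2% and 48.3% to 90.6% and 89.6%.

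Genes of the glucocorticoid response lay lower at P1 as a group, without any of them passing the test. The list held 26 genes, of which 25 were tested and 0 passed. Their median log2 change was -0.93 beside 0.15 over all genes, with 21 below 0 and 4 above. Among the 22 at 10 CPM or more, 11 were separated and lower, against 11.0% of all genes, and 1 was separated and higher. Of its members, 9 had a share lower by at least 20 points in both sexes, against 1.16% of the 16917 genes with any read. That background had no limit on level, whereas 22 members of the list were at 10 CPM or more. A gene read in under 20% of the fetal cells cannot fall by 20 points. The contrast with 1.16% is therefore no measure of an excess in the list. This list, like the others here, was chosen with earlier results of these data known, so its counts are a description and no test.

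Klf15 was at 123 and 184 CPM at E18.5 and at 4.29 and 8.39 CPM at P1, with no overlap (log2 change -4.60 ± 0.69; edgeR, adjusted p = 0.0871). Tsc22d3, which encodes the anti-inflammatory protein GILZ, was at 316 and 390 and then at 65.7 and 91.3 CPM (log2 change -2.17 ± 0.37; edgeR, adjusted p = 0.113). Cdkn1c, the imprinted cell cycle inhibitor p57, was at 1781 and 1733 and then at 545 and 657 CPM, close within each age. Fkbp5, a chaperone that damps the receptor, was at 35.7 and 121 and then at 6.53 and 20.6 CPM, with the P1 male near the E18.5 female. Zbtb16, the transcription factor PLZF, was at 30.7 and 47.5 and then at 3.97 and 0.227 CPM. Per1, a component of the circadian clock, was at 217 and 234 and then at 67.9 and 68.4 CPM. Angptl4, an inhibitor of lipoprotein lipase, went the other way, at 26.0 and 52.5 and then 207 and 116 CPM. The receptor gene Nr3c1 was at 173 and 156 CPM at E18.5 and at 265 and 270 CPM at P1.

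Over all other cells of these mice, each of the 11 separated genes was read in a smaller share in both P1 mice than in both E18.5 mice, but the mixture of labels differed between the ages. Zbtb16 was read in 41.8% and 36.5% of all other cells at E18.5 and in 4.44% and 6.96% at P1, and Klf15 in 40.8% and 41.1% and then in 6.87% and 8.35%. Fkbp5 was read there in 58.2% and 50.5% and then in 14.1% and 15.5%. Pdk4 differed, since only 15.6% and 16.2% of the other cells had a read at E18.5, against 46.2% and 51.7% of the adventitial cells. Within early alveolar fibroblasts, the one large label of P1 with cells at E18.5 too, the genes did not share a direction. Fkbp5 (35.7% and 12.5%, then 11.9% and 12.0%) and Hif3a (35.7% and 20.8%, then 13.0% and 10.9%) had both P1 mice lower. Klf15 was read in 28.6% and 8.33% and then in 8.01% and 9.67%, so the ages overlapped. In Per1, Tsc22d3, Cdkn1c, Glul and Map3k6 both P1 mice were higher, for example Tsc22d3 at 28.6% and 8.33% and then 38.1% and 44.5%. The E18.5 shares rest on 14 and 24 cells, which had fewer reads per cell than those of P1, and these shares were not thinned to a common depth.

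**Figure D4:**
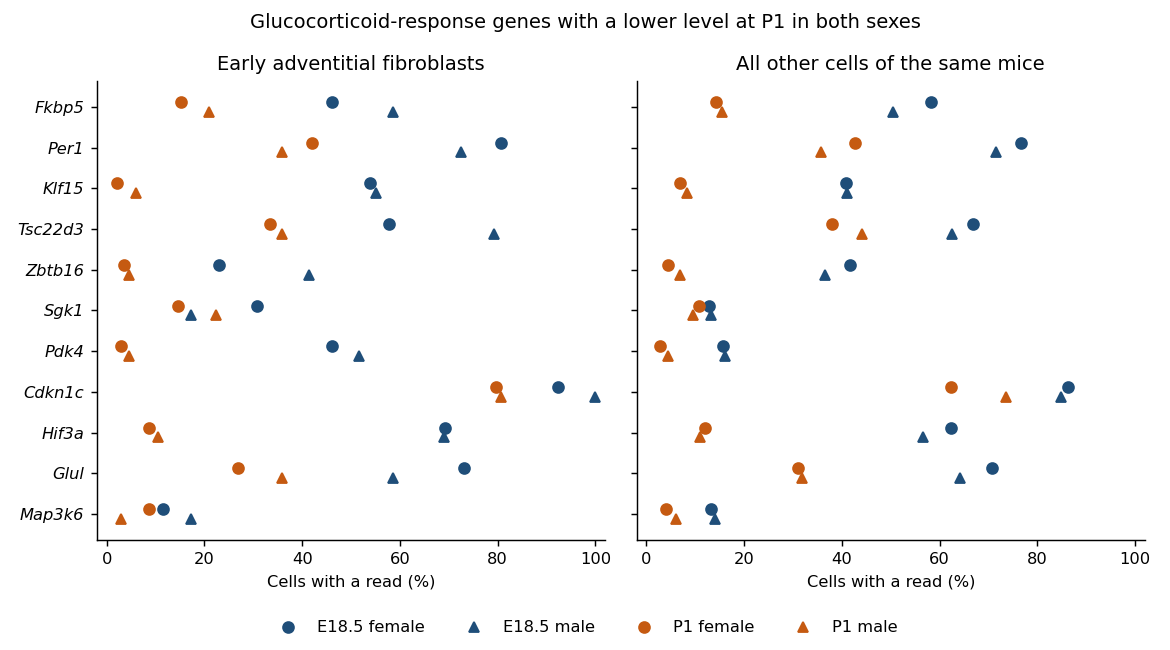
Share of cells with a read (x axis, %) for the 11 glucocorticoid-response genes whose level was separated and lower at P1, in early adventitial fibroblasts (left) and in all other cells of the same mice (right). Blue is E18.5, orange P1, circles females and triangles males; Klf15 and Zbtb16 are lower at P1 in both panels, and the labels that make up the other cells differ between the ages.

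The promoters of 3 of these genes are shown because they were lower together and share a short motif. The sequences are the 250 bases before the transcription start in RefSeq (build GRCm38.p6), and the capitals mark CACGTG, the E-box that clock and other helix-loop-helix factors recognise. Klf15 lies on the plus strand at chr6:90462326-90462575, Per1 (the upstream of its 2 starts in the table) on the plus strand at chr11:69098699-69098948 and Fkbp5 on the minus strand at chr17:28486150-28486399.
Klf15: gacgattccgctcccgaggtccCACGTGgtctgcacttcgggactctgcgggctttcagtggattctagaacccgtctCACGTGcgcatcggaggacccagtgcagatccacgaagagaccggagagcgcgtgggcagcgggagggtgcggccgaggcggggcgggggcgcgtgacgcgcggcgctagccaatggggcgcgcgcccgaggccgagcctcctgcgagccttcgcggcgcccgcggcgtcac
Per1: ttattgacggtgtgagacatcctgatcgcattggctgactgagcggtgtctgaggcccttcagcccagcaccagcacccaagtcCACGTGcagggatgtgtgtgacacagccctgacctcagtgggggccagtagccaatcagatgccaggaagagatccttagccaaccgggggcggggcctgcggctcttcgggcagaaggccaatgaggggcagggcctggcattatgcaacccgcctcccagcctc
Fkbp5: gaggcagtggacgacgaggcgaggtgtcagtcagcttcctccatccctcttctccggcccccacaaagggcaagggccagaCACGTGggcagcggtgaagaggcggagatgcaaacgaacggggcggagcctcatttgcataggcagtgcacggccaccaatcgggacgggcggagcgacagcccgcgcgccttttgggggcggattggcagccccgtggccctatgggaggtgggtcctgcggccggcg

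Klf15 held 2 copies of CACGTG, and Fkbp5 and the upstream start of Per1 held 1 each. The window before the other start of Per1, at chr11:69099902-69100151, held 0. The hexamer reads the same on both strands. It was present in 6.02% of all 32851 promoters of this length. Of the 26 genes of the glucocorticoid list 21 had an entry, with 31 promoters, of which 6 held CACGTG, in Bcl6, Dusp1, Fkbp5, Klf15, Per1 and Sgk1. The half-site of the glucocorticoid response element, AGAACA or its reverse complement TGTTCT, was present in 6 of the 31 and in 16.1% of all promoters, and was not in the 3 windows shown. Of the 11 genes separated and lower, 9 had an entry, with 17 promoters. There 4 held CACGTG, in Fkbp5, Klf15, Per1 and Sgk1, and 4 held the half-site, in Sgk1 and Tsc22d3. Bcl6 and Dusp1 held CACGTG but were not separated and lower. The motifs were picked after the levels were known, and a match is a description of these letters only.

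Elastic fibre genes did not move as a block. Of 22 genes tested 0 passed, with a median log2 change of -0.12. Of these 22, 3 were separated and higher and 2 lower, against 11.1% and 11.0% of all genes. The summed level of the list was 22631 and 23769 CPM at E18.5 and 20963 and 24603 CPM at P1. Eln, the elastin gene, was at 4800, 7416, 3684 and 7500 CPM in the order E18.5 female and male, P1 female and male, with the sexes farther apart than the ages. Lox, the enzyme that cross-links elastin and collagen, was at 1531 and 1386 CPM at E18.5 and at 408 and 395 CPM at P1, close within each age and 3.64-fold lower at P1 (log2 change -1.86 ± 0.26; edgeR, adjusted p = 0.0699). It was still read in 82.6% and 82.1% of the P1 cells, so its lower sum went with fewer reads per cell more than with fewer cells. Loxl1, the related elastin cross-linker, was at 266 and 439 and then 611 and 579 CPM. Emilin2, an elastic fibre glycoprotein, had 1 read in each E18.5 mouse and stood at 54.0 and 30.5 CPM at P1, and 1 cell gave 80.9% of the reads in the P1 male (edgeR, adjusted p = 0.0567). Efemp1, the fibulin of fascia and vessel walls, was at 103 and 326 and then at 15.0 and 33.1 CPM.

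Collagen genes were separated no more often than all genes, of which 11.1% were separated and higher and 11.0% separated and lower. Of 21 collagen genes tested 0 passed, 16 had a log2 change above 0 and the median was 0.49, while 2 (Col5a3 and Col8a2) were separated and higher and 1 (Col13a1) lower. Col1a1 was at 5994 and 6987 CPM at E18.5 and at 10093 and 8984 CPM at P1, Col1a2 at 5120 and 5115 and then 8887 and 8437, and Col3a1 at 3580 and 3886 and then 8380 and 5285. In each of these 3 fibrillar collagens both P1 mice lay above both E18.5 mice, by 1.47, 1.69 and 1.83 times in the means, so none reached 2-fold. Genes of collagen processing, such as the hydroxylases, did not share the direction: 14 of 19 tested were below 0, the median was -0.49 and none was separated. P4ha3, a prolyl hydroxylase, was at 186 and 245 and then 91.1 and 127 CPM. Among proteoglycans and hyaluronan genes, 6 of 19 at 10 CPM were separated and higher and 1 lower, against 11.1% and 11.0% of all genes. The higher ones were Dcn, Lum, Sdc1, Has1, Has2 and Tnxb. Tnxb, the matrix glycoprotein tenascin-X, was read in 7.69% and 13.8% of the cells at E18.5 and in 42.0% and 22.4% at P1. The lower one was Ogn, the proteoglycan osteoglycin, at 2702 and 2797 and then 1210 and 1012 CPM. Mmp23, a membrane-bound metalloproteinase, was at 72.8 and 92.1 and then 399 and 301 CPM (log2 change 2.08 ± 0.30; edgeR, adjusted p = 0.0699).

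Retinoid genes were split in direction over all 18, but those at higher levels were more often higher at P1. Of 18 tested, 1 passed upward, which was Adh7, and the median was 0.06 with 9 genes on each side of 0. Of the 12 at 10 CPM, 5 were separated and higher (Adh7, Aldh1a2, Aldh1a3, Rbp4 and Rarres2), against 11.1% of all genes, and 1 was lower. Rarres2, the secreted chemoattractant chemerin, was at 295 and 267 and then 959 and 554 CPM. Adh1, a related alcohol dehydrogenase, was read in 88.5% and 86.2% and then in 65.9% and 80.6%, at 2373 and 3245 and then 2716 and 3592 CPM, without separation. Aldh1a2, which makes retinoic acid, was at 11.0 and 14.6 and then 95.8 and 52.4 CPM, and was read in 11.5% and 10.3% and then in 21.7% and 17.9% of the cells. Rarg, a retinoic acid receptor, was at 42.7 and 44.5 and then 21.9 and 20.6 CPM.

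Inflammatory and interferon-related genes stood higher in part. Of 20 chemokine and cytokine genes tested 0 passed. Of the 14 at 10 CPM, 6 were separated and higher with none lower, against 11.1% and 11.0% of all genes. Il6 was at 21.9 and 48.6 CPM at E18.5 and at 275 and 249 CPM at P1, and was read in 11.5% and 13.8% and then in 28.3% and 40.3% of the cells (log2 change 3.03 ± 0.40; edgeR, adjusted p = 0.0616). A single cell gave 77.4% and 96.5% of the Il6 reads at E18.5 but 11.1% and 16.3% at P1. Ccl2, which attracts monocytes, was at 0 reads at E18.5 and at 105 and 52.6 CPM at P1, but from 4 and 3 cells. Of 26 genes of interferon response and MHC class I tested 0 passed, and the median was 0.92. Of the 20 at 10 CPM, 8 were separated and higher with none lower, against 11.1% and 11.0% of all genes. Ly6a, also an adventitial marker, is among the 8. Ifitm3, a membrane protein that blocks virus entry, was at 389 and 564 and then 1163 and 1182 CPM. H2-K1, a class I heavy chain, was at 0 reads at E18.5 and at 9.18 and 47.6 CPM at P1, read in 5.07% and 14.9% of the cells. Its reads and those of the other class I genes are uncertain, because near-identical copies can share reads, and the same holds for Ly6a and for Ccl2 and Ccl7.

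Antioxidant genes lay above the median gene, and hypoxia-response genes below it. Of 23 antioxidant genes tested 0 passed, and 19 were above 0 with a median of 0.62. Against 11.1% and 11.0% of all genes, 5 of 20 at 10 CPM were separated and higher with none lower. Besides Sod3 these included Gpx3, the secreted glutathione peroxidase, at 331 and 452 and then 624 and 1089 CPM, and Srxn1, which repairs oxidised peroxiredoxins, at 0 reads and then 35.6 and 12.7 CPM. Of 25 hypoxia-response genes tested 0 passed, and the median was -0.49. Of the 20 at 10 CPM, 6 were separated and lower with none higher, against 11.0% and 11.1% of all genes. Slc2a1, the glucose transporter GLUT1, was at 19.5 and 70.2 and then 0.940 and 8.00 CPM. Hif1a, the oxygen-sensing transcription factor, was at 125 and 113 and then 53.4 and 51.1 CPM. Ldha, which makes lactate, was at 650 and 1007 and then 376 and 543 CPM. Vegfa, the vessel growth factor, was low at both ages, at 3.60 and 10.5 and then 8.11 and 13.3 CPM, and its ages overlapped.

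**Figure D5:**
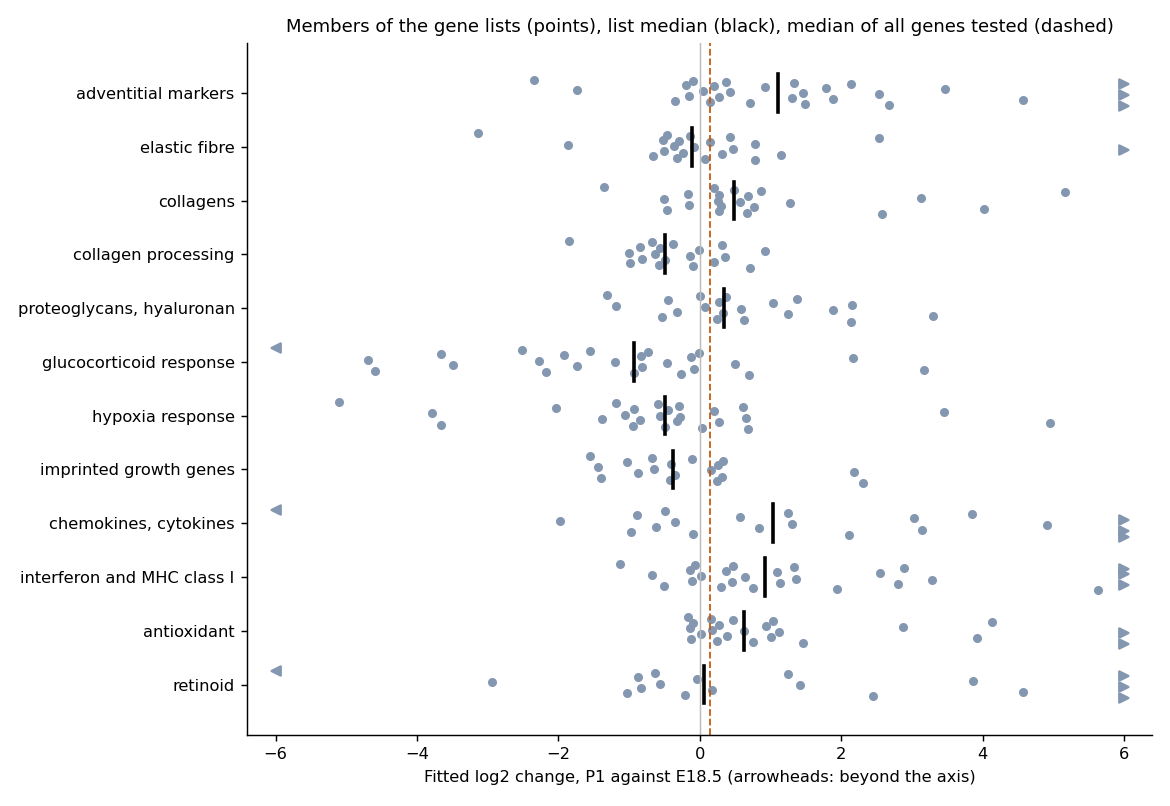
Fitted log2 change from E18.5 to P1 (x axis) of the tested members of 12 gene lists (rows). Each point is a gene, arrowheads are genes beyond the axis, black bars list medians and the dashed line the median of all genes tested. The glucocorticoid-response list sits lowest with a median of -0.93, and the adventitial markers have a median of 1.11. The lists were chosen with earlier results of these data known.

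Fetal growth genes of the imprinted network were split in direction, and the few that were separated were lower. Of 18 tested 0 passed, and 11 were below 0 and 7 above, with a median of -0.38. Of the 15 at 10 CPM, 3 were separated and lower, against 11.0% of all genes, with none higher. Plagl1, a zinc finger regulator of that network, was at 718 and 894 and then 306 and 302 CPM. Grb10, an adaptor that restrains insulin and IGF receptors, was at 871 and 731 and then 386 and 397 CPM. Igf2, the fetal insulin-like growth factor, was at 635 and 229 and then 433 and 349 CPM, so its ages overlapped, while its share was 96.2% and 82.8% and then 62.3% and 59.7%. Among 22 WNT genes tested 0 passed, and 13 were above 0 and 9 below, with a median log2 change of 1.07. At 10 CPM, 2 of 15 were separated and higher and 5 lower, against 11.1% and 11.0% of all genes. Dkk3, a secreted Dickkopf-family protein, was at 145 and 134 and then 385 and 407 CPM (log2 change 1.50 ± 0.27; edgeR, adjusted p = 0.132). Axin2, a feedback target of WNT signalling, was at 110 and 44.7 and then 13.2 and 14.3 CPM. Tcf21, a transcription factor of alveolar lipofibroblasts and fibroblast precursors, was at 991 and 979 CPM at E18.5 and at 312 and 366 CPM at P1. It was read in 96.2% and 96.6% and then in 69.6% and 79.1% of the cells. Cell division genes were low, with a summed level of 254 and 219 and then 349 and 270 CPM over 20 genes. Of 19 tested 0 passed, and 14 were above 0 with a median log2 change of 1.94. At 10 CPM, 3 of 9 were separated and higher (Top2a, Mcm5 and Tyms) with none lower, against 11.1% and 11.0% of all genes. Tyms, which makes thymidylate for DNA, was at 15.1 and 48.0 and then 82.4 and 56.9 CPM.

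The change from E18.5 to P1 was then set against that of early alveolar fibroblasts, the fibroblasts of the gas-exchange walls, in the same mice. At E18.5 that label held only 14 cells of the female and 24 of the male, against 362 and 393 cells at P1. The interaction was called for 625 of 16062 genes (3.89%), and in 606 of them the change was more downward, or less upward, in the adventitial cells. Both E18.5 alveolar libraries together held at most 3 reads for 496 of the 625 (79.4%), against 41.0% of all genes tested. Of the 16 genes with the largest steps in share, C1qtnf2 and Sod3 had an adjusted interaction p under 0.05 in edgeR, at 0.0339 and 0.0294. These p-values carry no direction, so they do not show a larger rise in the adventitial cells. Sod3 was at 0 reads in both E18.5 alveolar libraries and at 187 and 196 CPM at P1 there, so a higher P1 level was not particular to the adventitial cells. Klf15, Lox, Mfap5, Wfdc1 and Adh7 did not pass (edgeR, adjusted p of 0.243, 0.870, 0.881, 1.00 and 1.00), which does not show that they behaved alike in the 2 labels. The 4 mice alone gave 0 calls, as did leaving out any 1 P1 or P7 mouse, while leaving out the E18.5 female gave 5129 and the E18.5 male 2456.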

How the data were processed

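The deposited table held whole-number read counts per gene and cell, which the authors had not normalized. STAR 2.5.2b and HTSeq 0.10 are named in the submitters' processing notes, as is a human genome build, so the build used for these mouse reads is unclear and no coordinates were taken from the table. No molecular identifiers are named, so copies of 1 molecule count separately. The authors' subtype labels were used as deposited, how they were assigned is not given in the sources used here, and no doublet caller was run.

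Reads were summed per mouse over cells of the label, for the 8 mice with at least 10 such cells. They were tested with edgeR 4.0.16 (R 4.3.3; TMM, filterByExpr, two-sided quasi-likelihood test, terms for sex and group, 3 residual degrees of freedom), with Benjamini-Hochberg adjustment over all genes and a threshold of 0.05. The interaction used 16 sums, with mouse as a block. The mouse was the replicate, with 2 per age. DESeq2 1.42.0 was an alternative. Scripts were tested on simulated data. Named were the genes past the threshold, list members, the 8 largest steps in share each way, and up to 6 genes of the interaction. Bcl6, Dusp1 and Sgk1 carry a motif of the promoter search. The members and the 31 gene lists were chosen with earlier results of these data known. Some genes recur across lists, among them Ly6a, Mfap5, Dcn, Lum, Aldh1a3 and Cdkn1c, so the counts of different lists are not independent.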

Additional observations from a re-analysis of the deposited data

Results flagged for a closer look

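In all, 6 genes stood out because their change from E18.5 to P1 differed between early adventitial and early alveolar fibroblasts of the same mice, by the test of that difference (edgeR, mouse as a block). They are the 6 with the smallest p.

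Tgfb3, a transforming growth factor beta ligand, had a fitted difference of -10.32 on the log2 scale (adjusted p = 0.0179). It was at 85.6 and 358 CPM at E18.5 and 184 and 187 CPM at P1 in the adventitial cells, whose ages overlapped, and at 0 and 1 read and then 55.5 and 52.0 CPM in the alveolar cells. Plec, the cytoskeletal linker plectin, had -11.80, with 1 and 0 reads in the alveolar cells at E18.5. Pdrg1, a subunit of a chaperone complex, had -8.81, with 1 read in each. Becn1, the autophagy protein beclin 1, had -15.79, Nbl1, a secreted antagonist of bone morphogenetic proteins, had -17.06, and Actr1b, a dynactin subunit, had -16.32, and these 3 were at 0 reads in both. In the adventitial cells none of the 6 was separated between the ages. The alveolar sums at E18.5 rest on 14 and 24 cells, so these differences are those of genes at or near 0 reads in small libraries, and the part of cell number in them was not tested. The fitted sizes depend on the prior count and are no bounds. All 6 calls were lost with the 4 mice alone.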

How the results depend on the processing

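The test of P1 against E18.5 called 2 genes, and the count moved with most settings. It was 0 with the 4 mice alone, 26 with early and later labels joined, 34 with no filter on low counts, 16 without a term for sex, 43 with cells thinned to 100000 reads, 16 without the top cell per gene and mouse, and 875 with DESeq2. Leaving out 1 mouse at a time gave 0 to 23 calls: 6 without the E18.5 female, 23 without the E18.5 male, 5 and 13 without the P1 female and male, 12 and 1 without the P7 female and male, and 1 and 0 without those in hyperoxia. Over all settings the adjusted p was 3.21e-12 to 0.389 for Wfdc1 and 1.34e-11 to 0.389 for Adh7. None of the 71 genes followed changed direction under any setting. They include the called genes and those with the largest steps in share, picked for a difference between the ages, so an unchanged direction is no independent support. Beside Wfdc1 and Adh7, 55 more passed with DESeq2 and 20 more after thinning. DESeq2's scaling, total reads alone and leaving out CD31-sorted cells kept 2 calls.

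The interaction was called for 625 genes, 0 with the 4 mice alone, 3067 with DESeq2, and 0 to 5129 leaving out 1 mouse. Shares separated upward numbered 11, and 21 after thinning (9 genes in common), and those separated downward 197, and 122 after thinning (94 in common). The labels give no replicate numbers to pair by, and the term for sex served as the block between the ages. Among the E18.5 and P1 mice sex is also the sequencing run, which is not claimed for the P7 mice of the fit. With 2 mice an age and 55 cells at E18.5, a gene read in few cells can be missed, and with 1 mouse left out the lone mouse of its age was assumed to vary like the others.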
